A study of Mus musculus with 28 samples.

Results

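In this series 10 primary mammary tumors were set against each other by how much of an epithelial program their RNA held. The series measured 28 Affymetrix arrays of mouse material. Primary tumors (PT) gave 11 arrays, metastases in the lung (LungMets) gave 9, and normal mammary gland (NMG) and normal lung (NL) gave 3 each, beside 1 array each of the JygMC(A) cell line grown as a monolayer and as spheres. Both sides of the comparison are PT: young adult female BALB/c athymic nude mice received 50000 JygMC(A) cells per mammary gland, and tumors were collected at day 30 as untreated, snap-frozen whole tissue. LungMets came from the same kind of host at day 50. JygMC(A) is a mouse mammary carcinoma line that spreads from the gland to the lung, and the methods name the injected cells as JygMC(A)-GFP/Luc, a derivative with fluorescent and luciferase reporters. Every tumor therefore derived from 1 line in hosts that lack most T cells, and a tumor array holds the RNA of injected and of host cells together. The labels do not tie arrays to mice, and the methods describe more fragments than mice for this kind of tissue, so that some arrays may share a mouse and the p-values measure the spread between arrays.

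The PT were ranked by the mean of the log2 intensities of Epcam and Cdh1, and the 5 highest of 10 (called epithelial-high below) were compared with the 5 lowest (epithelial-low). PT replicate 5 was left out by the same rule, so that 10 of 11 PT and 10 of 28 arrays entered. Epithelial-high were PT replicates 6, 10, 11, 1 and 3, and epithelial-low were PT replicates 2, 4, 9, 7 and 8. Values by array are given in this order throughout, which is the order of falling score, and all are log2 intensities.

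Epcam encodes a glycoprotein of epithelial cell contacts and Cdh1 encodes E-cadherin, the adhesion protein of adherens junctions. Carcinoma cells can lose both when they pass through an epithelial-mesenchymal transition (EMT), in which zinc finger factors of the Snai and Zeb families bind E-box elements and switch off epithelial genes, and which leaves spindle-shaped cells that express vimentin, fibronectin and matrix proteases. Mammary carcinomas often hold both kinds of area side by side, and the study dissected such areas by laser from the same model.

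The E-box that Snai and Zeb factors bind reads CAGGTG on 1 strand and CACCTG on the other. It was searched in the 250 bases before the RefSeq start of the genes described here (build GRCm38.p6, plus strand of each gene). Windows of 3 genes with several matches are shown, 1 gene that defined the groups, 1 that was among the largest rises and 1 among the largest falls, with each match in capitals.
Epcam, chr17:87635729-87635978, plus strand: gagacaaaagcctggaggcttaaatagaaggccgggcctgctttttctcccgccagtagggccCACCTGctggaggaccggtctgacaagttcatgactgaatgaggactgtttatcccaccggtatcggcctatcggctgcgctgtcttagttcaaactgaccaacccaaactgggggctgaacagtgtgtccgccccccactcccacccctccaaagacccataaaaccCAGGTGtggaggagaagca
Elf5, chr2:103411848-103412097, plus strand: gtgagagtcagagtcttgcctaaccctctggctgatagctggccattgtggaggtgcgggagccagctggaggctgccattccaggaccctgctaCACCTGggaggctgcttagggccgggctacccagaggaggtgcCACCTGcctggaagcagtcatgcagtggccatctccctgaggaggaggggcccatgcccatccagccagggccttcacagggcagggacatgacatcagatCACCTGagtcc
Ndrg4, chr8:95676724-95676973, plus strand: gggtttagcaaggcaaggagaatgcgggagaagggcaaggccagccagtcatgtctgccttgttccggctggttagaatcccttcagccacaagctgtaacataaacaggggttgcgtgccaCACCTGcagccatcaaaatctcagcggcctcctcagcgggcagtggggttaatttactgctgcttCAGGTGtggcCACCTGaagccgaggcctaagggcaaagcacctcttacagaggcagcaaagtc
The Epcam window held 2 matches, and those of Elf5 and Ndrg4 held 3 each. These were single windows of several: the other Elf5 window held 0, and the other 3 Ndrg4 windows held 0, 1 and 0. Of the 15 largest rises named below, 10 had a window in the RefSeq table and 2 of these genes held a match. Of the 15 largest falls, 13 had a window and 4 held a match. By window, 16.7% (2 of 12) held a match among the rises and 31.2% (5 of 16) among the falls, and 17.2% of all 32851 RefSeq windows of this length did (5657 windows). By gene, the shares were 20% of the rises, 30.8% of the falls and 19.4% of all 27025 genes with a window (5252 genes). A match describes these letters only.

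The values that chose the members are given as a description. Epcam measured 13.36, 13.29, 12.69, 11.78 and 11.47 in the epithelial-high tumors, against 11.08, 10.53, 10.26, 8.75 and 7.01 in the epithelial-low tumors. Cdh1 measured 11.09, 10.67, 9.42, 9.88 and 9.65 in the epithelial-high tumors, against 9.33, 8.79, 8.27, 6.82 and 6.18 in the epithelial-low tumors. PT replicates 7 and 8 lay far below the rest, and the scores formed a gradient rather than separate classes. The score was 11.33 ± 0.73 in epithelial-high and 8.70 ± 1.48 in epithelial-low tumors (SD, n = 5 each). At the edge of the rule, PT replicate 3 scored 10.56 and PT replicate 2 scored 10.20, a gap of 0.36. Epcam alone and Cdh1 alone gave the same 5 and 5 arrays. A second Epcam probe set, which the score did not use, ranged from 7.65 to 8.47 in epithelial-high tumors and reached 7.59 at most in epithelial-low tumors.

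PT replicate 5, outside the comparison, scored 12.29, and its lung epithelium genes averaged 10.04, above the 5.38 to 6.75 of the other PT. LungMets scored 9.88 to 12.31, NMG 9.28 to 10.44 and NL 9.25 to 10.13, and the cultured cells lay lowest, with 4.81 in the monolayer and 3.90 in the spheres. PT replicates 7 and 8 were therefore the tumors nearest to the cultured line in these 2 genes, and still above it.

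**Figure D1:**
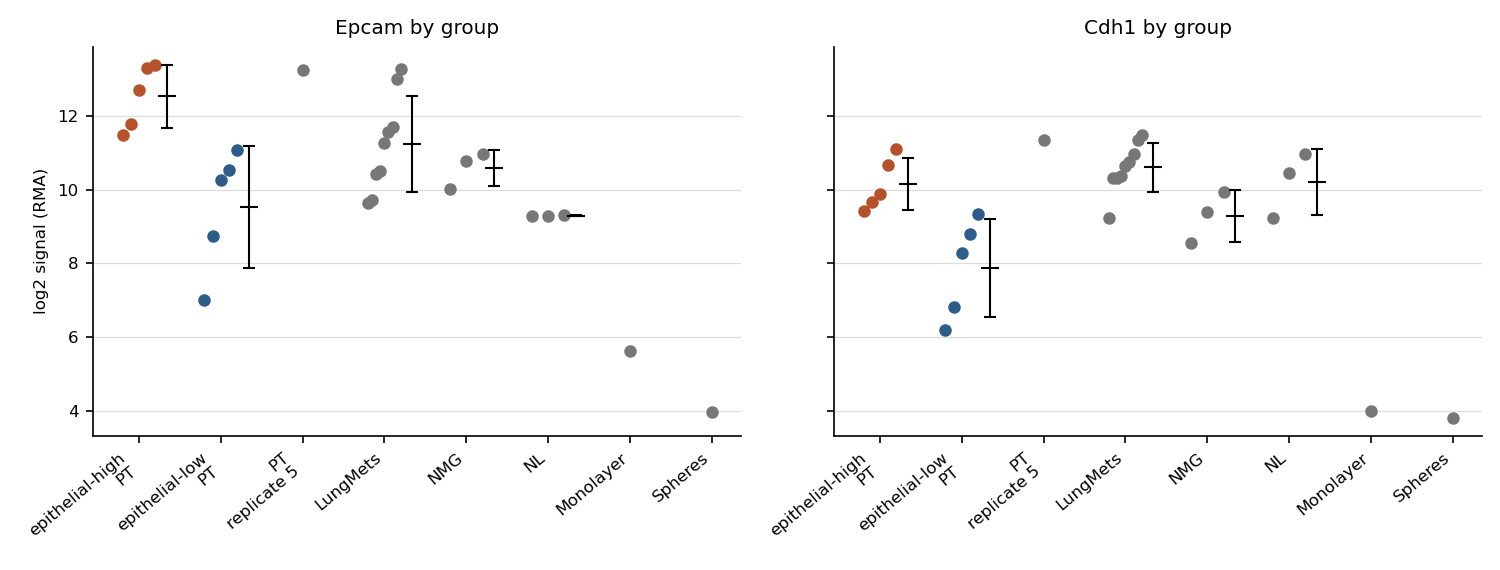
Epcam and Cdh1 log2 intensity in each array, by group, with epithelial-high PT left of epithelial-low PT and bars for the group mean ± SD. Epcam spans 11.47 to 13.36 in the epithelial-high and 7.01 to 11.08 in the epithelial-low tumors, and both cultures lie below every tissue array.

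Over all other genes, 18192 were tested with limma and Benjamini-Hochberg adjustment, and 3141 passed an adjusted p of 0.05 (17.3%). Of these, 1476 (8.11%) were higher and 1665 (9.15%) were lower in epithelial-high tumors, while the median difference of all genes was 0.06. Values of the groups did not overlap in 1307 genes that were higher (7.18%) and 1092 that were lower (6%). Among called genes, 330 were higher and 609 lower by more than 2-fold. Counts in the gene lists below are to be read beside the 8.11% higher and 9.15% lower of all genes. Both sides were ranked on genes measured on the same arrays, so a called gene is one that moved with Epcam and Cdh1 over these tumors. The count moved when single tumors were left out: it was 1520 without PT replicate 8, 1658 without 9, 1736 without 7, 1894 without 6 and 2030 without 10. Without both PT replicates 7 and 8 (an alternative chosen after seeing the data) it was 0, with 4080 genes at an unadjusted p under 0.05. All 1476 rises were still positive (median 0.52) and all 1665 falls still negative (median -0.79). Those genes were called on arrays that include the remaining ones, so the kept sign is a description and no separate evidence. Of 120 called genes taken as the largest changes or the leading members of lists, 71 kept their call without any 1 array. Where one of these given with its SE did not, the arrays concerned stand beside it, and list members given by their difference alone were not followed in this way.

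The largest rises and falls were taken from called genes whose groups did not overlap, so no overlap was a condition of naming them. The largest rise among these was that of Cnmd, which encodes chondromodulin, a cartilage glycoprotein that inhibits vessel growth. It measured 11.15, 12.18, 11.50, 10.25 and 9.95 in epithelial-high tumors, against 9.88, 7.33, 8.84, 5.72 and 4.93 in epithelial-low tumors. Epithelial-high arrays were bright and less spread out than epithelial-low arrays, where PT replicates 8 and 7 were lowest. The groups did not overlap, but PT replicate 3 (9.95) lay only just above PT replicate 2 (9.88). The difference was 3.67 ± 0.85 (SE, limma adjusted p = 0.0173). Cnmd measured 2.72 to 3.04 in NL and 3.51 to 5.16 in NMG, and 2.74 and 3.02 in the monolayer and spheres.

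Elf5, the ETS factor of luminal alveolar cells that drives milk gene expression, measured 12.11, 11.68, 11.19, 10.53 and 10.05 in epithelial-high tumors, against 9.71, 8.47, 8.51, 6.65 and 5.21 in epithelial-low tumors. The values fell along the score in the epithelial-high group and further in the epithelial-low group, where PT replicate 8 was lowest. Elf5 differed by 3.40 ± 0.74 (SE, limma adjusted p = 0.0143). The related ETS factor Ehf differed by 2.69 ± 0.71 (SE, limma adjusted p = 0.0258), a call lost without PT replicate 6, 7, 8 or 10 (highest adjusted p = 0.0643). Cited4, a co-activator of CBP/p300, differed by 2.62 ± 0.65 (SE, limma adjusted p = 0.0218), a call lost without PT replicate 6 or 7 (highest adjusted p = 0.0547).

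Wfdc18, a whey acidic protein family member abundant in the mammary gland, measured 14.11, 13.86, 12.65, 12.27 and 12.13 in epithelial-high tumors, against 11.89, 9.89, 10.58, 9.35 and 8.71 in epithelial-low tumors. Groups did not overlap, though PT replicate 2 came within reach of PT replicates 1 and 3. Its difference was 2.92 ± 0.58 (SE, limma adjusted p = 0.0109). Lcn2, the iron-siderophore binding lipocalin 2, differed by 3.01 ± 0.79 (SE, limma adjusted p = 0.0254), a call lost without PT replicate 6, 7 or 10 (highest adjusted p = 0.0633). Wfdc3, another member of the whey acidic protein family, differed by 2.90 ± 0.64 (SE, limma adjusted p = 0.0146).

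The remaining large rises had varied roles. Ceacam20, an adhesion molecule of the CEA family, measured 8.31, 9.17, 4.77, 5.61 and 5.63 in epithelial-high tumors, against 3.95, 3.38, 3.75, 3.68 and 3.76 in epithelial-low tumors. It was dim in every epithelial-low tumor, where the Y-linked genes, dim in every tumor, averaged 2.86 to 3.23 over the 10 PT, and it was highest in PT replicates 6 and 10. The fitted difference of 2.99 ± 0.73 (SE, limma adjusted p = 0.0201) is therefore only a lower limit if those tumors lacked the RNA. Lrrn3, a leucine-rich repeat neuronal protein, rose by 2.98, Fbp2, the muscle form of fructose bisphosphatase, by 2.90, Kdf1, a regulator of keratinocyte differentiation, by 2.80, and Rps6ka6, the ribosomal S6 kinase RSK4, by 2.77. No overlap was a condition of naming these genes (limma adjusted p = 0.00986, 0.0111, 0.0201 and 0.016), and the Kdf1 call was lost without PT replicate 7 (adjusted p = 0.0508).

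**Figure D2:**
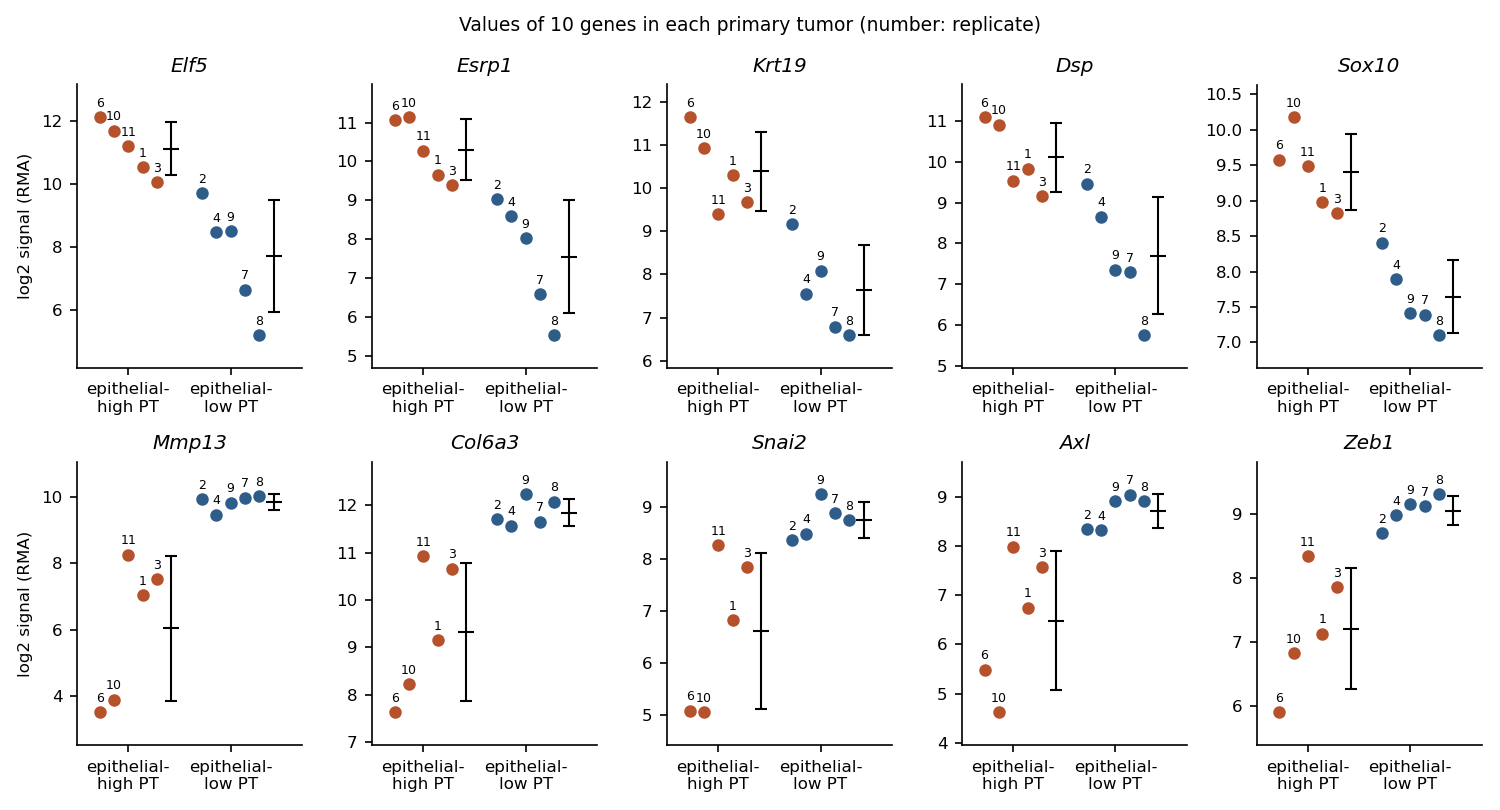
Log2 signal of 5 genes that rose (top row) and 5 that fell (bottom row) in each PT, epithelial-high left of epithelial-low in order of falling score, with replicate numbers at the points and bars for the mean ± SD. Elf5 runs down to 5.21 in the epithelial-low tumors, and Mmp13 lies at 3.51 and 3.89 in PT replicates 6 and 10 but between 9.46 and 10.03 in every epithelial-low tumor.

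Of 30 measured genes of epithelial junctions and adhesion, 16 were higher, 0 lower and 14 not called, with a median difference of 0.83 against 0.06 over all genes tested. The list averaged 7.01 to 7.74 by array in epithelial-high tumors and 6.10 to 6.93 in epithelial-low tumors. Ocln, the tight junction protein occludin, measured 8.09, 6.89, 6.42, 6.74 and 6.06 in epithelial-high tumors, against 5.61, 4.52, 4.25, 4.30 and 4.40 in epithelial-low tumors. In epithelial-low tumors it was dim except in PT replicate 2, and the groups did not overlap. The fitted difference was 2.22 ± 0.36 (SE, limma adjusted p = 0.00846). The epithelial-low values of Ocln, 4.25 to 5.61, lay above the 2.86 to 3.23 of the Y-linked genes, and whether the limit given for Ceacam20 holds here was not tested. Cldn3, a sealing claudin, differed by 2.19 ± 0.46 (SE, limma adjusted p = 0.0129). Dsp, the desmosomal plaque protein desmoplakin, and Cldn7 overlapped between groups and differed by 2.41 ± 0.63 (SE, limma adjusted p = 0.0252), a call lost without PT replicate 6, 7, 8, 9 or 10 (highest adjusted p = 0.0621) and by 2.40 ± 0.69 (SE, limma adjusted p = 0.0356), a call lost without PT replicate 1, 4, 6, 7, 8, 9 or 11 (highest adjusted p = 0.077). The tricellular junction genes Marveld2 (1.56) and Lsr (1.77) and the polarity gene Crb3 (0.78) were called higher too. The adherens junction genes Ctnna1 (-0.25), Ctnnd1 (0.07) and Jup (0.25) and the tight junction scaffold Tjp1 (-0.12) were not called, nor was P-cadherin Cdh3 (0.13). Within date batch 1 the median of the list was 0.34 and within date batch 2 it was 1.06. It was 0.53 without PT replicates 7 and 8.

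Keratins, the intermediate filaments of epithelial cells, did not move as 1 group. Of 14, 5 were higher and 1 lower, beside 8.11% and 9.15% of all genes, and the median difference was -0.01. Krt19, of simple and progenitor epithelium, was among those higher. It measured 11.64, 10.93, 9.39, 10.29 and 9.68 in epithelial-high tumors, against 9.16, 7.56, 8.08, 6.79 and 6.59 in epithelial-low tumors. Krt8, of simple epithelium, measured 11.49, 11.40, 11.19, 10.73 and 10.30 in epithelial-high tumors, against 10.09, 9.47, 8.97, 7.42 and 7.53 in epithelial-low tumors. In both genes every epithelial-high array exceeded every epithelial-low array, and PT replicates 7 and 8 were lowest. Krt19 differed by 2.75 ± 0.52 (SE, limma adjusted p = 0.0104) and Krt8 by 2.33 ± 0.49 (SE, limma adjusted p = 0.0127). Krt15 (2.72), Krt23 (1.29) and Krt18, the partner of Krt8 (1.13), were called as well. Krt80 was called lower (-0.76). Without PT replicate 2 or 11 the number lower was 2. The basal and stress keratins Krt14 (-1.18), Krt5 (-0.53), Krt6b (-1.91) and Krt16 (-1.09) did not pass the test. Genes of epidermis and skin, where several of these keratins are made, averaged 6.53 in PT replicate 2, the highest of the 10 tumors, and their part in the keratin values was not tested.

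Among 18 epithelial transcription and splicing regulators, 10 were higher and 0 lower, with a median difference of 1.06. Esrp1, which directs epithelial exon choice in mRNA splicing, measured 11.06, 11.14, 10.28, 9.66 and 9.39 in epithelial-high tumors, against 9.03, 8.59, 8.03, 6.58 and 5.54 in epithelial-low tumors. It followed the score closely in both groups without overlap, with PT replicate 8 at the bottom. Its difference was 2.75 ± 0.63 (SE, limma adjusted p = 0.0162), and that of its paralog Esrp2 was 2.15 ± 0.43 (SE, limma adjusted p = 0.0114). The grainyhead factors Grhl1 (1.96) and Grhl2 (1.93), the luminal pioneer factor Foxa1 (1.65), the RNA-binding gene Rbm47 (1.64) and Ovol2, a repressor of EMT factors (0.76), were called higher. Trp63, the p63 factor of basal epithelium, differed by -0.83 and was not called.

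Of 22 genes for membrane proteases, their inhibitors and epithelial trafficking, 12 were higher and 0 lower (median 0.86). Rab25, a small GTPase of apical recycling, measured 9.82, 9.95, 9.08, 8.54 and 8.43 in epithelial-high tumors, against 7.93, 7.51, 6.91, 6.38 and 6.57 in epithelial-low tumors. The groups stood apart, with PT replicates 6 and 10 brightest. It differed by 2.10 ± 0.37 (SE, limma adjusted p = 0.00921), and Ap1m2, the epithelial subunit of the AP-1 clathrin adaptor, by 2.10 ± 0.38 (SE, limma adjusted p = 0.00986). The matriptase gene St14 (1.88), its inhibitors Spint1 (1.83) and Spint2 (1.88), and Prss8, prostasin (1.56), rose together. Prom2, a prominin of plasma membrane protrusions, differed by 1.91 ± 0.32 (SE, limma adjusted p = 0.00862). Erbb3, a receptor of neuregulins, overlapped and differed by 2.04 ± 0.44 (SE, limma adjusted p = 0.0144), and only 1 of 2 probe sets gave this sign. Met (-0.58), the receptor of hepatocyte growth factor, and Sdc1 (-0.47), syndecan, were not called.

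Luminal and milk genes split: 5 of 15 were higher, 0 lower, with a median of 0.82. Leaving out PT replicate 3, or fitting the date as a block, gave 1 lower. Csn1s1, the alpha-S1 casein, measured 5.82, 5.01, 4.54, 6.07 and 4.85 in epithelial-high tumors, against 3.91, 3.51, 3.86, 3.82 and 4.31 in epithelial-low tumors, low in every tumor but without overlap. Casein beta (Csn2, 1.27), Wap (0.24), Gata3 (-0.57), Esr1 (0.25) and Pgr (-0.14) did not pass. Of 12 basal and myoepithelial genes 0 were higher and 3 lower (median -0.51), beside 8.11% and 9.15% of all genes. Without PT replicate 11 the number lower was 5. Procr, a receptor of mammary stem and endothelial cells, differed by -1.33 ± 0.24 (SE, limma adjusted p = 0.00986). Mylk, myosin light chain kinase, measured 5.94, 5.66, 7.20, 6.63 and 7.49 in epithelial-high tumors, against 8.08, 8.02, 8.38, 8.12 and 8.19 in epithelial-low tumors, and epithelial-low arrays differed little among themselves. Mylk differed by -1.57 ± 0.31 (SE, limma adjusted p = 0.0107), with 2 of 3 probe sets in this direction.

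**Figure D3:**
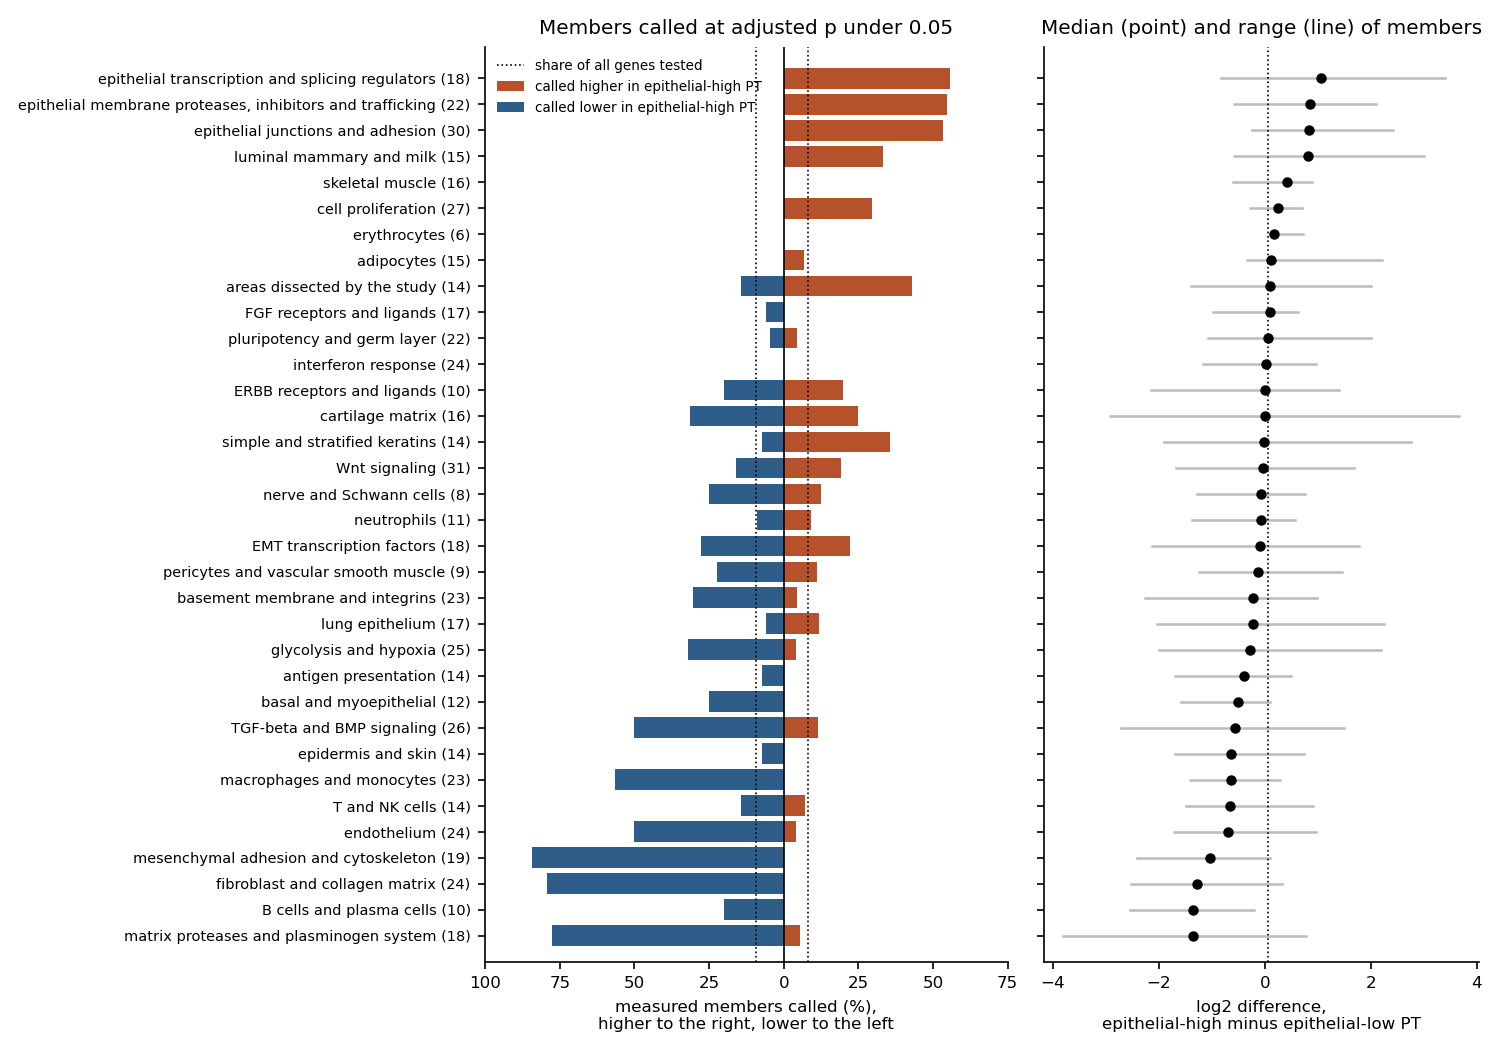
Left, percent of the measured genes of each list (number in brackets) called higher, to the right, or lower, to the left, in epithelial-high against epithelial-low PT, with dotted lines at the 8.11% and 9.15% of all genes tested. Right, the median and range of the log2 differences, with the median of all genes, 0.06, dotted; lists with rises on top run to 1.06 and those with falls to -1.36.

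Among called genes without overlap, the largest fall was that of Mmp13, the collagenase 3 of cartilage and bone remodeling. It measured 3.51, 3.89, 8.26, 7.04 and 7.52 in epithelial-high tumors, against 9.94, 9.46, 9.82, 9.97 and 10.03 in epithelial-low tumors. The epithelial-low arrays lay within a narrow band, whereas the epithelial-high arrays ran over a wide range, with PT replicates 6 and 10 lowest. The difference was -3.80 ± 0.83 (SE, limma adjusted p = 0.0144), with the same limit as for Ceacam20 at the low signal of PT replicates 6 and 10. Mmp13 measured 2.63 to 3.02 in NMG and 2.87 to 2.93 in NL, and 3.12 and 3.03 in the monolayer and spheres.

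Mmp9, the gelatinase B of macrophages, neutrophils and invasive cells, measured 4.44, 4.95, 6.16, 5.31 and 6.24 in epithelial-high tumors, against 7.60, 8.16, 9.64, 8.19 and 8.68 in epithelial-low tumors. Here the spread was alike on both sides and the groups stayed apart. Mmp9 differed by -3.03 ± 0.41 (SE, limma adjusted p = 0.00777). Of 18 matrix proteases and plasminogen genes 14 were lower and 1, the stromelysin Mmp11, was higher (0.78), with a median of -1.36. The list averaged 5.98 to 7.46 in epithelial-high tumors and 7.95 to 8.34 in epithelial-low tumors. Adam12, a disintegrin protease of mesenchymal cells, differed by -2.25 ± 0.49 (SE, limma adjusted p = 0.0141). The urokinase gene Plau (-1.56), its receptor Plaur (-1.17), and the inhibitors Timp1 (-1.64) and Timp3 (-1.63) were called lower, the Timp1 call being lost without PT replicate 1, 6, 7, 8, 9 or 10 (highest adjusted p = 0.0576). Without PT replicate 9 the number lower was 9, and without PT replicate 7 or 8 the Mmp11 call was lost.

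Other large falls included secreted and matrix proteins. Ambp, the precursor of alpha-1-microglobulin and bikunin, measured 3.18, 3.18, 4.59, 4.53 and 5.89 in epithelial-high tumors, against 7.93, 6.37, 7.76, 7.90 and 7.59 in epithelial-low tumors. PT replicate 4 was the dimmest epithelial-low array and still exceeded every epithelial-high array. Ambp differed by -3.23 ± 0.50 (SE, limma adjusted p = 0.00796), with the same limit as for Ceacam20 at the low signal of PT replicates 6 and 10. Hapln1, a link protein of hyaluronan matrix, differed by -2.91 ± 0.37 (SE, limma adjusted p = 0.00721), and the limit is the same at its 3.19 and 2.95 in PT replicates 6 and 10. Pcolce2, an enhancer of procollagen processing, differed by -3.03 ± 0.87 (SE, limma adjusted p = 0.0353), a call lost without PT replicate 2, 4, 6, 7, 8, 9 or 10 (highest adjusted p = 0.0815). Loxl4, a lysyl oxidase that cross-links collagen, differed by -2.54 ± 0.50 (SE, limma adjusted p = 0.011), and Ltbp2, a microfibril protein, by -2.71 ± 0.66 (SE, limma adjusted p = 0.0207), a call lost without PT replicate 8 or 9 (highest adjusted p = 0.0525).

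Ndrg4, a member of the NDRG family, measured 6.22, 6.72, 7.71, 7.16 and 8.30 in epithelial-high tumors, against 9.40, 9.13, 10.26, 9.39 and 10.43 in epithelial-low tumors. The groups did not overlap, and the spread was similar on each side. It differed by -2.50 ± 0.38 (SE, limma adjusted p = 0.00796). Hoxd13, a homeobox gene of distal limb and urogenital patterning, measured 3.49, 4.27, 7.14, 5.50 and 6.23 in epithelial-high tumors, against 8.03, 8.00, 8.22, 8.08 and 8.34 in epithelial-low tumors. Epithelial-low arrays were nearly identical, and PT replicates 6 and 10 were again lowest. Hoxd13 differed by -2.81 ± 0.56 (SE, limma adjusted p = 0.011), with the same limit as for Ceacam20 at the low signal of PT replicate 6. The differences were -2.88 for Mageh1, a MAGE family gene, -2.78 for AA467197, -2.68 for Wscd2, -2.52 for Lhfp and -2.79 for Anxa8, an annexin (limma adjusted p = 0.0158, 0.0143, 0.0123, 0.021 and 0.0263). The Lhfp call was lost without PT replicate 7 or 8 (highest adjusted p = 0.0541), and that of Anxa8 without 6, 7, 8 or 9 (0.0638).

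Of 19 genes of mesenchymal adhesion and cytoskeleton, 0 were higher and 16 lower, with a median of -1.03. The list averaged 7.48 to 8.94 in epithelial-high tumors and 9.14 to 9.51 in epithelial-low tumors. Pdgfrb, a receptor of mesenchymal cells and pericytes, measured 7.57, 7.05, 9.93, 8.26 and 9.58 in epithelial-high tumors, against 10.30, 11.07, 11.15, 10.72 and 11.18 in epithelial-low tumors. PT replicates 11 and 3 approached the epithelial-low arrays, and PT replicates 10 and 6 were farthest away. Pdgfrb differed by -2.41 ± 0.49 (SE, limma adjusted p = 0.0119). The vimentin gene Vim (-1.05), N-cadherin Cdh2 (-1.03), fibronectin Fn1 (-1.29) and the mesenchymal cadherin Cdh11 (-2.10) were called lower. Axl, a receptor tyrosine kinase, differed by -2.22 ± 0.55 (SE, limma adjusted p = 0.0214), a call lost without PT replicate 7, 8 or 9 (highest adjusted p = 0.0539), and Tgfbi, a TGF-beta induced matrix protein, by -2.37 ± 0.57 (SE, limma adjusted p = 0.0199), a call lost without PT replicate 8 (adjusted p = 0.0503). S100a4, a calcium-binding protein of fibroblasts and motile cells, overlapped and differed by -2.21 ± 0.64 (SE, limma adjusted p = 0.037), a call lost without PT replicate 1, 4, 6, 7, 8, 9 or 10 (highest adjusted p = 0.0847) and with the date as a block (0.0514). The number lower in the list was 10 without PT replicate 7, 8 without 8 and 9 without 9.

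Fibroblast and collagen genes gave the longest run of falls, 19 of 24, with 0 rises and a median of -1.28. Their list average was 8.37 to 10.07 in epithelial-high tumors and 10.03 to 10.56 in epithelial-low tumors. Col6a3, a chain of microfibrillar collagen VI, measured 7.63, 8.23, 10.93, 9.15 and 10.66 in epithelial-high tumors, against 11.70, 11.57, 12.23, 11.65 and 12.08 in epithelial-low tumors. PT replicates 11 and 3 lay just under the epithelial-low arrays. It differed by -2.53 ± 0.56 (SE, limma adjusted p = 0.0149). Col6a2 differed by -2.00 ± 0.47 (SE, limma adjusted p = 0.0181) and Col5a1 by -2.03 ± 0.50 (SE, limma adjusted p = 0.0204), a call lost without PT replicate 8 (adjusted p = 0.0536). The fibril collagens Col1a1 (-1.29) and Col3a1 (-0.87) were called lower, while Pdgfra (0.32), Dcn (-0.68) and Fbln1 (-0.38), all genes of fibroblasts, were not called. Thbs1, thrombospondin, differed by -2.37 ± 0.65 (SE, limma adjusted p = 0.0312), a call lost without PT replicate 4, 6, 7, 8 or 9 (highest adjusted p = 0.0752). Falls numbered 11 without PT replicate 6, 10 without 7, 8 without 8 and 9 without 9. Collagen RNA can come from tumor and from host cells, and in whole tissue fewer cells of a type and less RNA per cell cannot be told apart.

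Basement membrane and integrin genes gave 7 lower and 1 higher of 23, with a median of -0.21. Over all genes 9.15% were lower and 8.11% higher, so the 1 higher is no more than the share of all genes. Itga6, the laminin receptor subunit of basal epithelial cells, measured 9.79, 9.34, 9.31, 9.62 and 9.52 in epithelial-high tumors, against 9.14, 8.59, 8.50, 8.10 and 8.29 in epithelial-low tumors. Epithelial-high arrays were level, and PT replicate 2 was the nearest epithelial-low array. Itga6 differed by 0.99 ± 0.18 (SE, limma adjusted p = 0.00981). Col7a1, the collagen of anchoring fibrils, overlapped and differed by -2.27 ± 0.58 (SE, limma adjusted p = 0.0243), a call lost without PT replicate 1, 6, 7, 8, 9 or 10 (highest adjusted p = 0.0606). Nid1, nidogen, differed by -0.98 ± 0.22 (SE, limma adjusted p = 0.016). The number lower was 3 without PT replicate 1, 8, 9 or 10 and 4 without 6 or 7, and the number higher was 2 without 3.

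Cartilage matrix genes divided: 4 of 16 were higher and 5 lower, beside 8.11% and 9.15% of all genes, with a median of 0.00. Col9a1, a collagen that decorates cartilage fibrils, measured 13.01, 13.31, 12.72, 11.66 and 11.72 in epithelial-high tumors, against 11.40, 11.15, 11.51, 9.96 and 10.46 in epithelial-low tumors. The groups were close but did not overlap, with PT replicate 9 the nearest epithelial-low array. Col9a1 differed by 1.59 ± 0.38 (SE, limma adjusted p = 0.0198), a call lost without PT replicate 8 (adjusted p = 0.054). Chad, the cartilage protein chondroadherin, differed by 1.88 ± 0.41 (SE, limma adjusted p = 0.0144). Col9a1 and Chad thus rose with Cnmd, opposite to the link protein Hapln1. The number lower in the list was 3 without PT replicate 8 and 3 without 9.

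**Figure D4:**
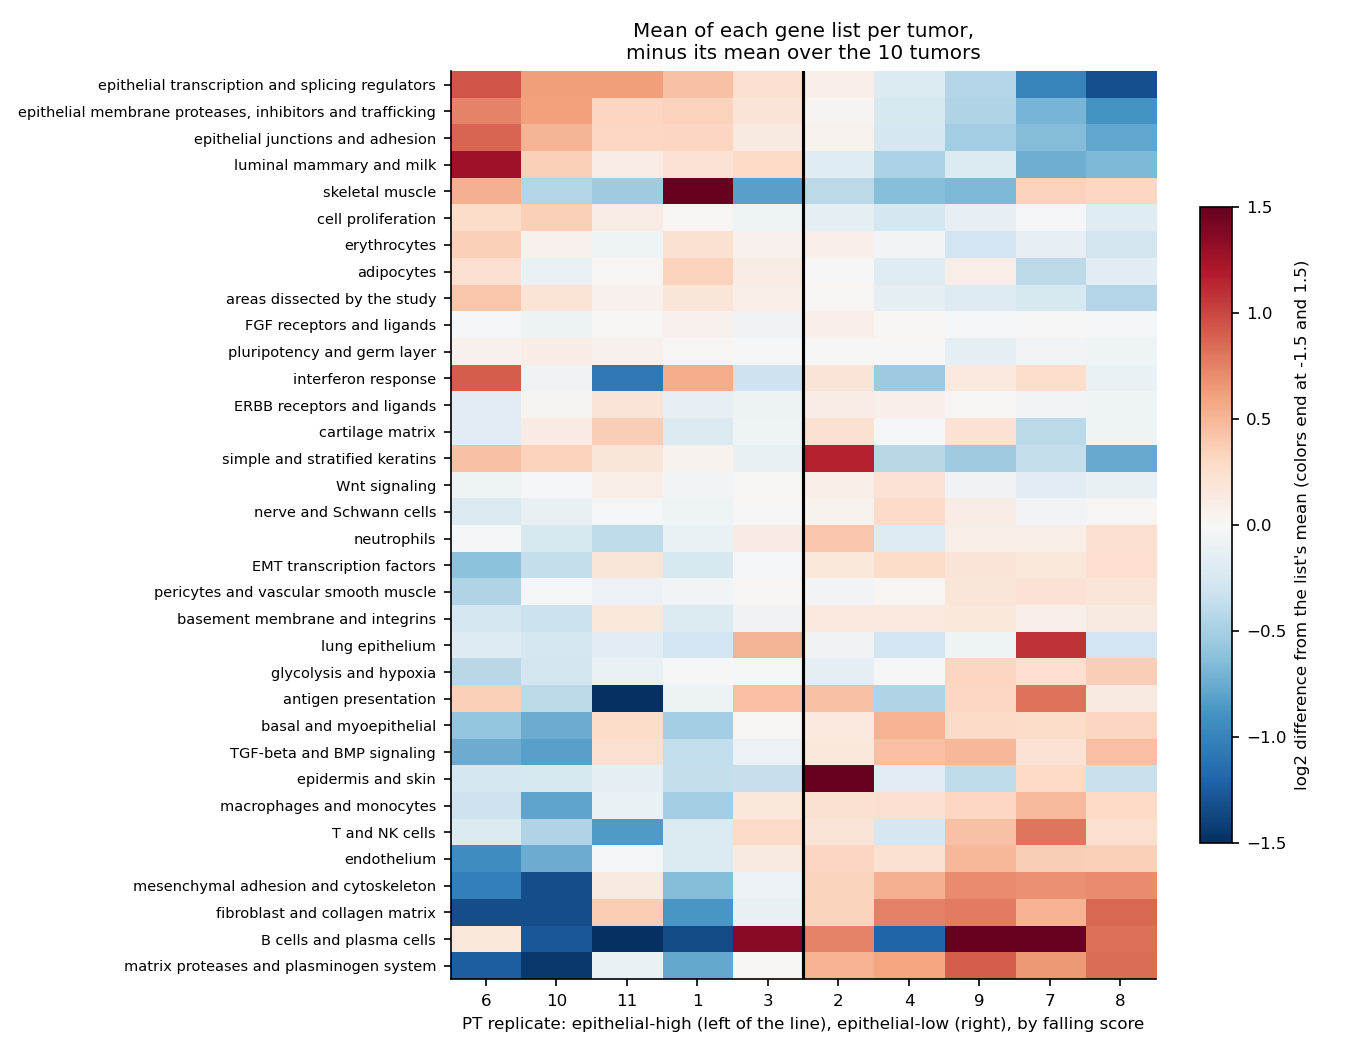
Mean log2 signal of each gene list in each PT minus its mean over the 10 PT, by color, with epithelial-high tumors left of the line and epithelial-low right of it in order of falling score. In the top 3 lists every epithelial-high tumor lies above every epithelial-low tumor and PT replicates 7 and 8 are lowest, whereas the collagen list separates PT replicates 6, 10 and 1 from 11 and 3 and spans 8.37 to 10.07 in epithelial-high and 10.03 to 10.56 in epithelial-low tumors.

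The EMT transcription factors did not fall as a block. Of 18 measured, 5 were lower and 4 higher, beside 9.15% and 8.11% of all genes, with a median of -0.09. Zeb1, a zinc finger repressor of Cdh1, measured 5.90, 6.82, 8.34, 7.13 and 7.85 in epithelial-high tumors, against 8.70, 8.98, 9.15, 9.12 and 9.30 in epithelial-low tumors. Epithelial-low arrays lay close together, and PT replicate 6 was lowest. Zeb1 differed by -1.84 ± 0.37 (SE, limma adjusted p = 0.0114), with 3 of 4 probe sets in this direction. Prrx1, a homeobox factor of mesenchymal cells, measured 5.79, 5.32, 7.39, 6.43 and 7.17 in epithelial-high tumors, against 8.18, 8.16, 8.23, 8.21 and 8.63 in epithelial-low tumors. Its groups did not overlap and PT replicate 10 was lowest. Prrx1 differed by -1.86 ± 0.35 (SE, limma adjusted p = 0.0101), with 5 of 6 probe sets in this direction.

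Snai2, the gene of Slug, differed by -2.13 ± 0.58 (SE, limma adjusted p = 0.0302), a call lost without PT replicate 1, 6, 7, 8, 9 or 10 (highest adjusted p = 0.074). Zeb2 was called lower (-1.48). Klf4, a zinc finger factor of epithelial differentiation and pluripotency, measured 8.45, 8.29, 9.39, 9.04 and 9.48 in epithelial-high tumors, against 10.16, 10.15, 10.24, 10.41 and 10.69 in epithelial-low tumors. Epithelial-high arrays were all dimmer, PT replicates 10 and 6 most of all, and the difference was -1.40 ± 0.23 (SE, limma adjusted p = 0.00848). Twist1 (-1.61), Twist2 (-0.73), Snai1 (-0.17) and Gsc (0.03) did not pass. Sox10, a factor of neural crest and of some mammary epithelial cells, went the other way. It measured 9.58, 10.18, 9.48, 8.98 and 8.83 in epithelial-high tumors, against 8.41, 7.89, 7.41, 7.39 and 7.10 in epithelial-low tumors, without overlap and with PT replicate 10 brightest. Sox10 differed by 1.77 ± 0.29 (SE, limma adjusted p = 0.00846). Foxc2, a forkhead factor used as a marker of EMT, differed by 0.91 ± 0.21 (SE, limma adjusted p = 0.0167), and Tcf3 (0.34) and Foxc1 (0.46) were called higher. The number higher was 2 without any 1 of PT replicates 2, 4, 7, 8, 9, 10 and 11.

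In TGF-beta and BMP signaling, of which TGF-beta is a main inducer of EMT, 13 of 26 genes were lower and 3 higher, with a median of -0.56. Among ligands, Inhba, the activin A subunit, differed by -2.69 ± 0.72 (SE, limma adjusted p = 0.0277), and only 1 of 2 probe sets gave this sign, the Inhba call being lost without PT replicate 1, 4, 6, 7, 8, 9 or 10 (highest adjusted p = 0.0649). Tgfb1 (-0.96), Tgfb2 (-1.66) and Bmp2 (-1.62) were called lower, and Tgfb3 (-0.48), Bmp4 (-0.13) and Bmp7 (0.40) were not called. Among receptors and transducers, Tgfbr1 (-0.39), Tgfbr2 (-0.62), Tgfbr3 (-0.95) and Smad3 (-0.34) were called lower. Among targets, Id3, an inhibitor of helix-loop-helix factors, measured 6.43, 5.64, 8.31, 6.90 and 7.70 in epithelial-high tumors, against 8.75, 9.08, 9.21, 9.04 and 9.20 in epithelial-low tumors. PT replicate 10 was lowest and the groups did not overlap. Id3 differed by -2.06 ± 0.41 (SE, limma adjusted p = 0.0108). Id1 (-1.60) was called lower too, whereas Id2 (0.98) was called higher, as were Bambi, a decoy receptor (1.50), and Inhbb (1.19). Ltbp1, which binds latent TGF-beta, differed by -1.79 ± 0.37 (SE, limma adjusted p = 0.0125), with 2 of 3 probe sets in this direction.

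Wnt genes went both ways, with 6 of 31 higher and 5 lower (median -0.03), beside 8.11% and 9.15% of all genes. Fzd7, a Wnt receptor of mammary stem cells, measured 9.55, 10.03, 9.44, 9.36 and 8.89 in epithelial-high tumors, against 8.60, 8.54, 8.06, 6.90 and 6.75 in epithelial-low tumors. Epithelial-high arrays were tightly grouped, and PT replicates 8 and 7 were lowest. Fzd7 differed by 1.68 ± 0.37 (SE, limma adjusted p = 0.0148). Rnf43, which removes Frizzled receptors from the surface, differed by 1.43 ± 0.27 (SE, limma adjusted p = 0.0105), and the ligand Wnt10a by -1.68 ± 0.27 (SE, limma adjusted p = 0.00846). The targets Axin2 (-0.32), Lef1 (0.38), Sp5 (-0.05) and Nkd1 (-0.23) were not called. The number higher was 2 without PT replicate 8 and 3 without 9. The number lower was 3 without PT replicate 1, 7, 9 or 10 and 2 without 6 or 8.

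Of 10 genes for ERBB receptors and ligands, 2 were higher and 2 lower, beside 8.11% and 9.15% of all genes. Tgfa, a ligand of the EGF receptor, measured 7.10, 8.50, 6.92, 6.80 and 6.68 in epithelial-high tumors, against 6.20, 6.02, 5.44, 5.63 and 5.66 in epithelial-low tumors. PT replicate 10 was far brighter than the other arrays, and the groups did not overlap. It differed by 1.41 ± 0.31 (SE, limma adjusted p = 0.0146). Egfr overlapped and differed by 1.03 ± 0.30 (SE, limma adjusted p = 0.0376), a call lost without PT replicate 1, 4, 6, 7, 8, 9 or 10 (highest adjusted p = 0.0902) and with the date as a block (0.0525). The ligand Hbegf overlapped and differed by -2.14 ± 0.60 (SE, limma adjusted p = 0.0323), a call lost without PT replicate 1, 4, 6, 7, 8, 9 or 10 (highest adjusted p = 0.0746). Btc, betacellulin, differed by -0.66 ± 0.16 (SE, limma adjusted p = 0.0203), a call lost without PT replicate 7 (adjusted p = 0.0514). FGF genes gave 0 higher and 1 lower of 17, less than the 8.11% and 9.15% of all genes, and that 1, the stromal ligand Fgf7, differed by -0.84 ± 0.15 (SE, limma adjusted p = 0.00986), and only 1 of 2 probe sets gave this sign. The number lower was 2 without PT replicate 1, 3, 4, 6 or 11, and the number higher was 1 without 2 or 4.

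Of the genes that the study named in connection with laser-dissected areas of such tumors, 14 were measured here, and 6 were higher and 2 lower. This list was chosen on tumors of the same model and is not independent evidence of a direction. By NanoString counts, the paper reported higher Epcam, T, Foxc2 and Cd24a in dissected carcinoma areas. It reported higher Klf4, Wt1 and Msi1 in spindle-like EMT areas. Those were dissected cells, whereas the arrays here hold whole tissue. Ntn1, the guidance protein netrin, measured 10.07, 9.22, 9.14, 8.93 and 8.89 in epithelial-high tumors, against 8.51, 7.65, 7.08, 7.23 and 5.97 in epithelial-low tumors. PT replicate 6 was brightest, PT replicate 8 dimmest and the groups did not overlap. Ntn1 differed by 1.96 ± 0.40 (SE, limma adjusted p = 0.0115). Cd24a, a surface glycoprotein of epithelial cells, differed by 1.41 ± 0.27 (SE, limma adjusted p = 0.0104). Ifitm2 differed by 0.37 ± 0.10 (SE, limma adjusted p = 0.0261), a call lost without PT replicate 4, 6, 8, 9 or 10 (highest adjusted p = 0.063) and Il6st, the gp130 receptor, by -0.71 ± 0.18 (SE, limma adjusted p = 0.0251), a call lost without PT replicate 1, 6, 8 or 9 (highest adjusted p = 0.0638). Commd3 (0.08), Eomes (-0.38), Msi1 (0.09), Pou5f1 (0.01), Rpl27 (0.01) and Wt1 (0.12) were not called. Only 1 was lower without PT replicate 1, 6, 8 or 9. Pluripotency genes gave 1 higher and 1 lower of 22, a smaller share in each direction than the 8.11% and 9.15% of all genes. Tert, the telomerase reverse transcriptase, measured 8.94, 8.73, 7.64, 7.82 and 7.32 in epithelial-high tumors, against 6.71, 6.26, 6.36, 5.79 and 5.29 in epithelial-low tumors, with no overlap. PT replicates 6 and 10 were brightest and PT replicate 8 was dimmest. Tert differed by 2.01 ± 0.34 (SE, limma adjusted p = 0.00881), and Sox2, a factor of pluripotent cells, by -1.07 ± 0.24 (SE, limma adjusted p = 0.0155). Leaving out PT replicate 9 gave 2 higher, and leaving out 11 gave 2 lower.

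Of 27 proliferation genes 8 were higher and 0 lower, with a median of 0.25. Bub1b, a spindle checkpoint kinase, measured 8.57, 8.56, 8.57, 8.23 and 8.31 in epithelial-high tumors, against 8.07, 7.91, 7.80, 7.95 and 7.81 in epithelial-low tumors. Values were close within each group and did not overlap between them. It differed by 0.54 ± 0.10 (SE, limma adjusted p = 0.00998). The proliferation count was fragile: it was 1 without PT replicate 6, 8 or 9, 2 without 10, 3 without 4 or 7, 4 without 1 and 5 without 2. In glycolysis and hypoxia genes 8 of 25 were lower and 1 higher (median -0.28). Adm, the vasodilator adrenomedullin, differed by -2.00 ± 0.44 (SE, limma adjusted p = 0.0146). Vegfa, the vessel growth factor, differed by -1.49 ± 0.36 (SE, limma adjusted p = 0.0206), a call lost without PT replicate 8 or 9 (highest adjusted p = 0.0557). The hypoxia marker Car9 (0.28), Slc2a1 (-0.34), Ldha (-0.17) and Pgk1 (-0.17) were not called. Aldoc, the brain form of aldolase, rose and measured 10.85, 9.78, 9.78, 9.39 and 9.58 in epithelial-high tumors, against 9.04, 7.75, 8.04, 6.87 and 6.70 in epithelial-low tumors, and it differed by 2.20 ± 0.42 (SE, limma adjusted p = 0.0104). Falls were 3 without PT replicate 8 or 9 and 5 without 6, 7 or 10.

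Macrophage and endothelial markers moved with the split. Of 23 macrophage and monocyte genes 13 were lower and 0 higher (median -0.64), and the list averaged 7.64 to 8.59 in epithelial-high tumors and 8.66 to 8.92 in epithelial-low tumors. Csf1r, the receptor of macrophage growth factor, measured 9.51, 9.25, 10.18, 9.57 and 10.36 in epithelial-high tumors, against 10.61, 10.88, 10.85, 10.78 and 10.75 in epithelial-low tumors. Epithelial-low arrays were nearly level and PT replicate 10 was lowest. Csf1r averaged 9.78 ± 0.47 in epithelial-high tumors and 10.78 ± 0.11 in epithelial-low tumors (SD, n = 5 each, limma adjusted p = 0.0107). The falls called were 6 without PT replicate 1 or 6, 8 without 4 or 10, 3 without 7 or 8 and 5 without 9. Of 24 endothelial genes 12 were lower and 1 higher (median -0.69), with list averages of 5.36 to 6.42 in epithelial-high tumors and 6.52 to 6.78 in epithelial-low tumors. Cd34, a sialomucin of vessels, differed by -1.23 ± 0.29 (SE, limma adjusted p = 0.018). Falls numbered 6 without PT replicate 7, 8, 9 or 10, and the 1 higher was lost without 1, 6, 8, 9, 10 or 11. The part of these host cells in the matrix and protease falls was not tested.

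Pericyte genes gave 1 higher and 2 lower of 9, neutrophil genes 1 and 1 of 11, nerve and Schwann cell genes 1 and 2 of 8 and antigen presentation genes 0 and 1 of 14. Over all genes tested 8.11% were higher and 9.15% lower, and 1 call in lists of this size is near these shares. Of the counts in these lists, only the 1 higher in pericytes and in nerve were not moved over 1.5 times by leaving out single arrays. The 0 of antigen presentation became 2 without PT replicate 11. B cell genes averaged 3.63 to 7.41 in epithelial-high tumors and 4.84 to 7.62 in epithelial-low tumors, and 2 of 10 were lower. That count was 0 without any 1 of PT replicates 6 to 10, 1 without 1, 2 or 11 and 4 without 3 or 4. T and NK cell genes gave 1 higher and 2 lower of 14, and the number lower was 0 without any 1 of PT replicates 7 to 10, 1 without 1, 6 or 11, 5 without 3 and 4 without 4. Skeletal muscle genes averaged 4.23 to 7.36 in epithelial-high tumors and 4.37 to 5.39 in epithelial-low tumors, with PT replicate 1 highest and 0 of 16 called by limma (0 at an unadjusted p under 0.05). Leaving out PT replicate 1 gave 1 lower. Epidermal genes averaged 4.23 to 4.44 in epithelial-high tumors and 4.20 to 6.53 in epithelial-low tumors, with PT replicate 2 highest and 1 of 14 lower, a call lost without PT replicate 7 or 9. Interferon response genes gave 0 of 24 in either direction by limma (2 at an unadjusted p under 0.05). With PT replicate 11 left out 1 was higher, and with 4 or 6 left out 1 or 2 were lower. Of 15 adipocyte genes only Cidea, a lipid droplet protein, was called. It measured 8.12, 9.24, 8.07, 7.04 and 7.23 in epithelial-high tumors, against 6.48, 5.83, 5.05, 5.44 and 5.86 in epithelial-low tumors, and it differed by 2.21 ± 0.39 (SE, limma adjusted p = 0.00941) without overlap. Lung epithelial genes gave 2 higher and 1 lower of 17, near the 8.11% and 9.15% of all genes, with averages of 5.38 to 6.18 in epithelial-high tumors and 5.38 to 6.75 in epithelial-low tumors, PT replicate 7 highest. The number higher was 1 without any 1 array other than PT replicates 4 and 11, and the number lower was 2 without 4. Aqp5, a water channel of secretory and lung epithelium, was the leading one and differed by 2.25 ± 0.49 (SE, limma adjusted p = 0.0142).

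The sides differed in their own spread. Among the 1665 genes called lower, the median SD was 0.39 in epithelial-high and 0.21 in epithelial-low tumors, and the SD was larger in epithelial-high tumors for 82.5% of them (1374 genes). Among the 1476 called higher, the median SD was 0.26 in epithelial-high and 0.20 in epithelial-low tumors, and it was larger in epithelial-high tumors for 66.3%. Over all genes the figures were 0.21 and 0.17, with 66.5% larger in epithelial-high tumors. The collagen list averaged 8.37, 8.37, 10.07, 8.82 and 9.59 in epithelial-high tumors, against 10.03, 10.46, 10.48, 10.22 and 10.56 in epithelial-low tumors, so that PT replicates 6, 10 and 1 lay apart from 11 and 3.

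The arrays fell into 2 date batches, with 2 epithelial-high and 2 epithelial-low tumors in the first and 3 and 3 in the second. Genes called higher had a median difference of 0.32 within batch 1 and 0.78 within batch 2, against 0.59 pooled, and 1469 and 1476 of 1476 were positive. Genes called lower had medians of -0.52 and -0.99, against -0.82 pooled, and 3 and 0 of 1665 were positive. Over all genes 9528 and 11023 of 18192 were positive. The called genes were chosen on the pooled arrays of both batches, so their sign within a batch is a description and no separate evidence. With the date as a block 2690 genes were called, and 8 of the 120 called genes taken by the naming rule lost their call, S100a4, Egfr, Wnt5b, Melk, Cldn5, Hdc, Cr2 and Foxj1 (limma adjusted p from 0.0501 for Hdc to 0.0629 for Cr2). Within batches 1 and 2 the median was -0.75 and -1.22 for mesenchymal adhesion, -1.12 and -1.35 for collagen matrix, -0.83 and -1.57 for matrix proteases, -0.45 and -0.74 for macrophages and -0.32 and -0.94 for endothelium. PT replicates 7 and 8, the lowest scores, and 6 and 10, the highest, are all in batch 2, so that date and the width of the score range cannot be told apart. Array medians of the 10 PT lay between 5.04 and 5.12.

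The same relation was then examined in LungMets, whose arrays the rule did not use. There each gene's slope on the Epcam and Cdh1 score was fitted over 9 arrays, and 1261 of 18192 genes were called (6.93%), 655 with a positive slope (3.6%) and 606 with a negative one (3.33%). Of the 1476 genes higher in epithelial-high PT, 1363 (92.3%) had a positive slope in LungMets, 397 were called positive and 0 negative. Of the 1665 genes lower in epithelial-high PT, 95.2% had a negative slope, 408 were called negative and 0 positive. Over all genes 50.5% of slopes were positive. The count moved with single arrays: 276 genes were called without LungMets replicate 6, 542 without 5, 629 without 4 and 756 without 1. The median slope of the first set was 0.27 log2 units per unit of score in LungMets and 0.18 in PT, and that of the second was -0.29 in LungMets and -0.23 in PT. Normal lung also expresses Epcam and Cdh1. LungMets replicate 9, which had the lowest score of the LungMets (9.88), averaged 6.58 for the lung epithelium list, beside 6.75 in PT replicate 7. The other LungMets averaged 9.61 to 10.61 for this list, and the source of the low value in replicate 9 was not tested. With that list as a covariate the shares were 90.6% and 95.9%, without LungMets replicate 6 they were 93.3% and 94.4%, and without 9 they were 88.7% and 94.7%.

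Single genes carried the relation in LungMets to different degrees. Slopes per unit of score were 1.44 (adjusted p = 0.00221) for Esrp1, 1.73 (adjusted p = 0.0067) for Elf5, 1.12 (adjusted p = 0.00388) for Rab25 and 0.65 (adjusted p = 0.00281) for Fzd7. Cnmd had a slope of 2.11 (adjusted p = 0.0452). Among falls, the slope was -0.67 (adjusted p = 0.0161) for Mmp9, -0.94 (adjusted p = 0.0196) for Zeb1, -1.47 (adjusted p = 0.0165) for Hoxd13 and -1.27 (adjusted p = 0.00395) for Ltbp1. Mmp13 (-1.27 (adjusted p = 0.239)), Ambp (-0.79 (adjusted p = 0.243)), Krt15 (0.22 (adjusted p = 0.677)) and Cidea (-0.01 (adjusted p = 0.985)) did not pass in LungMets. Slopes in PT and in LungMets differed for 2 genes of 18192 by adjusted p (0.011%, limma interaction term, with 1951 at an unadjusted p under 0.05), and none of the genes named here was among them. A slope that did not differ by this test is not shown to be alike.

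**Figure D5:**
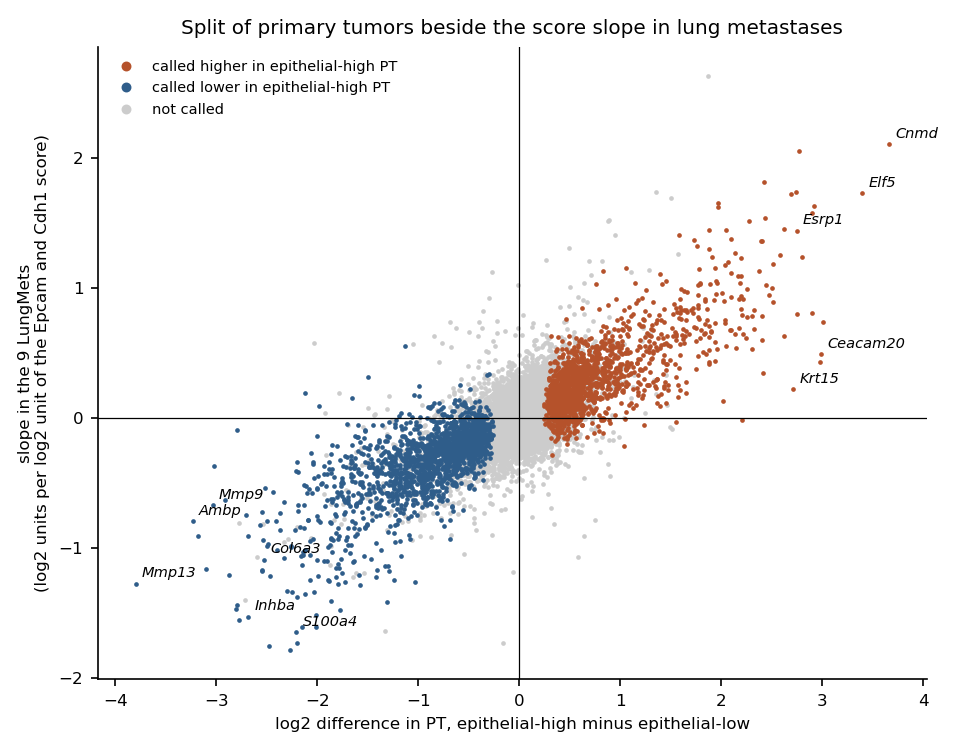
Each point is a gene, with its log2 difference between epithelial-high and epithelial-low PT on the horizontal axis and its slope on the Epcam and Cdh1 score over the 9 LungMets on the vertical axis. Of genes called higher in epithelial-high PT 92.3% lie above 0, and of genes called lower 95.2% lie below 0.

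The cultured line, the parent of all tumors, was measured once in each form and has no replicate. Of the 330 genes higher by more than 2-fold in epithelial-high tumors, 223 in the monolayer and 225 in the spheres lay below every one of the 10 PT. Of the 609 genes lower by more than 2-fold, 167 in the monolayer and 121 in the spheres lay above every one of the 10 PT, 128 and 154 lay below every one, and the rest lay between. Ambp measured 7.89 and 9.61, Ndrg4 10.84 and 11.07 and Hoxd13 9.28 and 8.97 in the monolayer and spheres, within or above the range of the epithelial-low tumors. Mmp13, Hapln1 (3.28 and 3.12), Col6a3 (7.31 and 6.45) and Csf1r (5.28 and 6.13) were low in both cultures and high in epithelial-low tumors. The rises Elf5 (4.36 and 3.73), Krt8 (5.69 and 4.96) and Tert (4.01 and 3.47) were lower in both cultures than in any tumor. PT replicate 5, which was left out, lay above every epithelial-low tumor for 313 of the 330 rises and below every one for 481 of the 609 falls. Its lung epithelium genes averaged 10.04 and its score was 12.29, beside 10.02 and 12.31 in LungMets replicate 5. The position of PT replicate 5 is therefore not evidence about primary tumors, and the source of this likeness was not tested.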

How the data were processed

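RNA of snap-frozen tissue was measured on Affymetrix arrays of 45101 probe sets. The deposited values are log2 intensities that the authors made with RMA (background correction, quantile normalization and probe set summary) in Partek 6.6; a version of RMA is not given in the sources used here. Probe sets with 1 gene symbol (34958; 932 had several and 9211 none) were used, and a gene with several was read from the one brightest on average over all 26 arrays of tissue. That left 18192 genes after the 2 that ranked the tumors. Array medians lay between 5 and 5.18, and the number of arrays limits the precision. Differences were tested with limma 3.58.1 in R 4.3.3 (lmFit, eBayes, Benjamini-Hochberg over all genes, threshold 0.05), 5 against 5. The slope on the score was fitted in the 9 LungMets, and an interaction term compared it with the PT slope. The procedure was tested on simulated data. Unused sample columns numbered 0. Members and the 35 gene lists were chosen with earlier results of these data known. Named were the 15 largest rises and 15 largest falls among called genes without overlap. Symbols that end in Rik, or start with Gm or LOC and a digit, were passed over. Also named were up to 4 called members of each list (or, where none was called, the 2 with the smallest p as values only), and all genes of the dissected areas. A gene named outside this rule as a list example was chosen after its values were seen. Alternatives changed the probe set rule, a filter on dim genes, the centering, normalization, date block, array weights, samples and variance moderation. Columns of comparisons between groups were not used.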

Additional observations from a re-analysis of the deposited data

Results flagged for a closer look

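Among 268 sets of 5 values (1 named gene in 1 group), 17 held an array set apart from the other 4 by a gap that passed Dixon's 95% limit, and chance flags about 1 in 20 such groups. In epithelial-high tumors, PT replicate 6 stood apart for Ltbp1 (6.53, others 8.33 to 8.67), Ntn1 (10.07, others 8.89 to 9.22) and Aldoc (10.85, others 9.39 to 9.78). PT replicate 10 stood apart for Tgfa (8.50, others 6.68 to 7.10), Commd3 (9.33, others 9.60 to 9.68) and Sbsn (3.99, others 5.41 to 5.67), and PT replicate 3 for Fgf7 (5.09, others 4.26 to 4.47).

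In epithelial-low tumors, PT replicate 2 stood apart for Ocln (5.61, others 4.25 to 4.52), Col7a1 (9.21, others 9.93 to 10.13) and Hbegf (9.09, others 9.88 to 10.13), and in each it lay toward the epithelial-high tumors. PT replicate 8 stood apart for Prrx1 (8.63, others 8.16 to 8.23), Sox2 (5.59, others 4.75 to 4.91), Rpl27 (11.7, others 11.82 to 11.85) and Eif2s3y (2.63, others 2.71 to 2.74), the last within the low-signal range of the array. PT replicate 4 was low for Ambp (6.37, others 7.59 to 7.93) and for the B cell gene Cr2 (4.23, others 7.06 to 7.88), and PT replicate 7 was high for AA467197 (9.66, others 8.75 to 8.87).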

How the results depend on the processing

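No paired analysis was possible because both sides are primary tumors with replicate numbers of their own. Against 3141 genes called, the count was 4736 with every probe set as its own feature, 2053 within date batch 2, 1237 without moderation of the variance, 939 with a fold change above 2 as well, 1520 to 3570 with 1 array left out, and 0 within date batch 1 (2 against 2, limma, 2047 at an unadjusted p under 0.05). It was 0 without PT replicates 7 and 8, chosen after seeing the data (4080 unadjusted). The cause of these changes was not tested, beyond fewer arrays or more features where the setting makes them. The other settings gave 2628 to 3399. The slope on the score put 55.9% of calls among the higher genes, against 47% in the comparison of groups. Against 1261 genes called for their slope in LungMets, the count was 2016 with the lung epithelium list as a covariate and 276 to 1394 with 1 array left out (276 without LungMets replicate 6, 542 without 5, 629 without 4, 756 without 1). Slopes differed between PT and LungMets for 2 genes, and for 0 with the mean of probe sets, 0 with genes above the median only, 5 with the date block and 9 without LungMets replicate 9. None of the 120 called genes taken by the naming rule reversed under any alternative that kept 1 value per gene. With every probe set as its own feature reversals were not counted. There, single probe sets of Erbb3, Inhba and Fgf7, among others, had the opposite sign. Losses of a call under a single left-out array ran from 1 (PT replicate 3) to 43 (PT replicate 8). Signal over background was not given per probe set, so dim genes have no detection limit here.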
